A study of Canis lupus familiaris with 77 samples.

Results

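The miR-181 family of the Beagle dog was followed through 16 tissues, with thymus and brain in the foreground. Its 4 mature members, cfa-miR-181a, cfa-miR-181b, cfa-miR-181c and cfa-miR-181d, were taken by name from the table of read counts, and they make up 4 of the 650 miRNAs that had at least 1 read. The choice used no measured value. All 4 members had reads in 76 of 76 libraries, and all 4 passed the filter on low counts that left 480 miRNAs for testing.

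The libraries came from miR-seq, the sequencing of RNA of miRNA length, on tissues of untreated male Marshall Beagle dogs aged 10 months. There were 5 dogs, which were perfused with phosphate buffered saline before the organs were taken. Thymus, brain and 12 further tissues (bone marrow, duodenum, heart, ileum, jejunum, kidney, liver, lung, pancreas, plasma, skeletal muscle and testis) had 5 samples each, colon had 4 and sciatic nerve had 2. No group carried a treatment or an engineered allele. The sources used here name neither the brain region nor the part of the thymus that was sampled. They describe the sciatic nerve RNA in different ways, including pooling over dogs, so those 2 samples may not be separate animals. No dog number is given either, so p-values measure the spread between samples and no samples were paired. Libraries held from 157871 to 7896424 reads on miRNAs, thymus from 157871 to 3418708 and brain from 785857 to 3217077. Levels are given as RPM, reads per 1000000 reads on miRNAs. Where no read is seen, up to 3 reads stay possible at the 95% level, which is 0.380 RPM in the deepest and 19.0 RPM in the shallowest library, and such limits cover counting error only.

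miRNAs are short RNAs that guide Argonaute proteins to partly complementary messenger RNAs, whose translation and stability they reduce. The miR-181 members share their seed, the stretch that pairs first with a target, and differ elsewhere at a few bases. miR-181a is known from immunology as a miRNA of developing T cells in the thymus, where it lowers the level of phosphatases that dampen signals of the T cell receptor, and miR-181 members are also abundant in brain. The gene table of the dog assembly UU_Cfam_GSD_1.0 lists 6 hairpin genes of the family in 3 clusters of 2, with no other gene between the genes of a cluster. MIR181A-1 and MIR181B-1 lie on chromosome 7 next to PTPRC, which encodes the leukocyte phosphatase CD45. MIR181B-2 and MIR181A-2 lie on chromosome 9 within the span of NR6A1, a nuclear receptor gene. MIR181D and MIR181C lie on chromosome 20 next to NANOS3, a germ cell gene. Mature miR-181a and miR-181b can each come from more than 1 hairpin, and their reads cannot be split between the chromosome 7 and chromosome 9 clusters. Reads were aligned without mismatches, and the counts of a library summed to between 0.0449% and 1.16% more than its read total, so that some reads carried more than 1 miRNA name. How many of these fell on the similar members of this family cannot be read from counts.

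The 5 libraries labelled thymus were of 2 kinds in the miRNAs that mark lymphocytes. The summed level of the lymphocyte-associated list (miR-150, miR-142, miR-155, miR-342 and miR-146a, 7 rows) was 23345 RPM in replicate 1 and 22908 RPM in replicate 4, but 1140, 1160 and 2021 RPM in replicates 2, 3 and 5. Bone marrow had a median of 18500 RPM and ileum one of 24417 RPM on the same sum, while brain had 1809 RPM and kidney 471 RPM, the lowest. Replicates 2, 3 and 5 thus sat near tissues that are not lymphoid. miR-150, a miRNA of mature lymphocytes, was at 2543, 57.0, 113, 2689 and 197 RPM in replicates 1 to 5. miR-155, which rises in activated lymphocytes, was at 2401, 133, 166, 3487 and 467 RPM. None of the 4 defining markers miR-150, miR-142, miR-155 and miR-342 was at 0 in any thymus library, although hsa-miR-142-3p, the other arm of miR-142, was at 0 in replicate 2.

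Other marker lists divided the thymus libraries in the same way or the opposite one. The epithelial list summed to 5000 and 5801 RPM in replicates 1 and 4 and to 133, 155 and 349 RPM in replicates 2, 3 and 5. Within it miR-205, a miRNA of stratified epithelia and of thymic epithelium, was at 2064 and 2049 RPM in replicates 1 and 4, at 0 in replicate 2, and at 4.0 and 57.2 RPM in replicates 3 and 5. The miR-17 to 92 group, clusters that are high in proliferating cells, summed to 40064 and 39604 RPM in replicates 1 and 4 against 11433, 14130 and 14293 RPM. The stromal list ran the other way, with 33484 and 16075 RPM in replicates 1 and 4 against 134027, 93190 and 96999 RPM, and the erythroid list gave 20678 and 4787 RPM against 63780, 92536 and 44966 RPM. The miR-181 members took 45.6% and 52.8% of reads in replicates 1 and 4, which lowers the RPM of every other list there. Part of the lower stromal and erythroid sums can come from this. The label goes with the lymphocyte and epithelial markers in replicates 1 and 4, and much less so in replicates 2, 3 and 5. All 5 are kept as thymus as labelled, and the thymus comparisons of the members are also given without replicates 1 and 4 and without replicates 2, 3 and 5, an alternative chosen after seeing the data. In bulk samples such as these, fewer cells of a type and less RNA per cell cannot be told apart.

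The brain libraries carried the markers of their label. The neural list summed to between 50382 and 103857 RPM in brain, and the next tissue, sciatic nerve, had a median of 3573 RPM. The defining markers were miR-9 at 21762 to 40348 RPM, miR-124 at 2067 to 4574 RPM, miR-128 at 18666 to 49434 RPM and cfa-miR-219-3p at 145 to 1435 RPM. Brain replicate 3 differed from the other 4 in single neural miRNAs. It had miR-137 at 1.0 RPM against 34.8 to 238 RPM, miR-132 at 486 RPM against 2220 to 5926 RPM and miR-212 at 38.3 RPM against 398 to 857 RPM.

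miR-181a, the most abundant member, was the leading miRNA in 8 of the 76 libraries, which were all 5 brain libraries, thymus replicates 1 and 4 and 1 lung library. In thymus it was at 426312, 52264, 41991, 500018 and 53348 RPM in replicates 1 to 5. Replicates 1 and 4 were high, the other 3 lay near one another, and the highest library was 11.9 times the lowest. In brain it was at 155612, 178387, 169188, 214686 and 372666 RPM, with replicate 5 above the rest. Every brain value lay above thymus replicates 2, 3 and 5 and below thymus replicates 1 and 4.

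miR-181b, which is processed from the same primary transcripts as miR-181a, had the same division at a lower level. Its thymus values were 28540, 2945, 3239, 27313 and 3349 RPM. Its brain values were 7550, 8834, 9264, 9664 and 18431 RPM, again with replicate 5 highest. The brain libraries once more fell between both kinds of thymus library.

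miR-181c, from the chromosome 20 cluster, showed no such division. It was at 836, 1013, 673, 596 and 865 RPM in thymus and at 8620, 8548, 55257, 7937 and 7791 RPM in brain. All 5 brain libraries were above all 5 thymus libraries, and brain replicate 3 stood above the others, where miR-181c ranked 3rd among all miRNAs.

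miR-181d, the partner of miR-181c and the least abundant member, was at 86.3, 272, 330, 63.5 and 317 RPM in thymus. Here replicates 1 and 4 were the low ones. In brain it was at 1264, 1590, 4958, 1796 and 1881 RPM, so that brain again lay above thymus in every library and replicate 3 was the highest. Reads taken by miR-181a and miR-181b lower the RPM of everything else, but the order of the thymus libraries in miR-181d held on another base. In RPM taken over the reads outside miR-181a and miR-181b, miR-181d was at 158, 288, 346, 134 and 336 in thymus replicates 1 to 5. On that base miR-181c was at 1534, 1073, 705, 1260 and 917, so that replicates 1 and 4 came first instead of among the middle and last.

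Together the 4 members took 45.6% (95% Wilson interval 45.5 to 45.7) and 52.8% (52.7 to 52.9) of all miRNA reads in thymus replicates 1 and 4. In replicates 2, 3 and 5 they took 5.65%, 4.62% and 5.79%. In brain they took 17.3%, 19.7%, 23.9%, 23.4% and 40.1%. Lung was next with a median of 10.9%, and plasma was lowest with 0.50%.

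**Figure D1:**
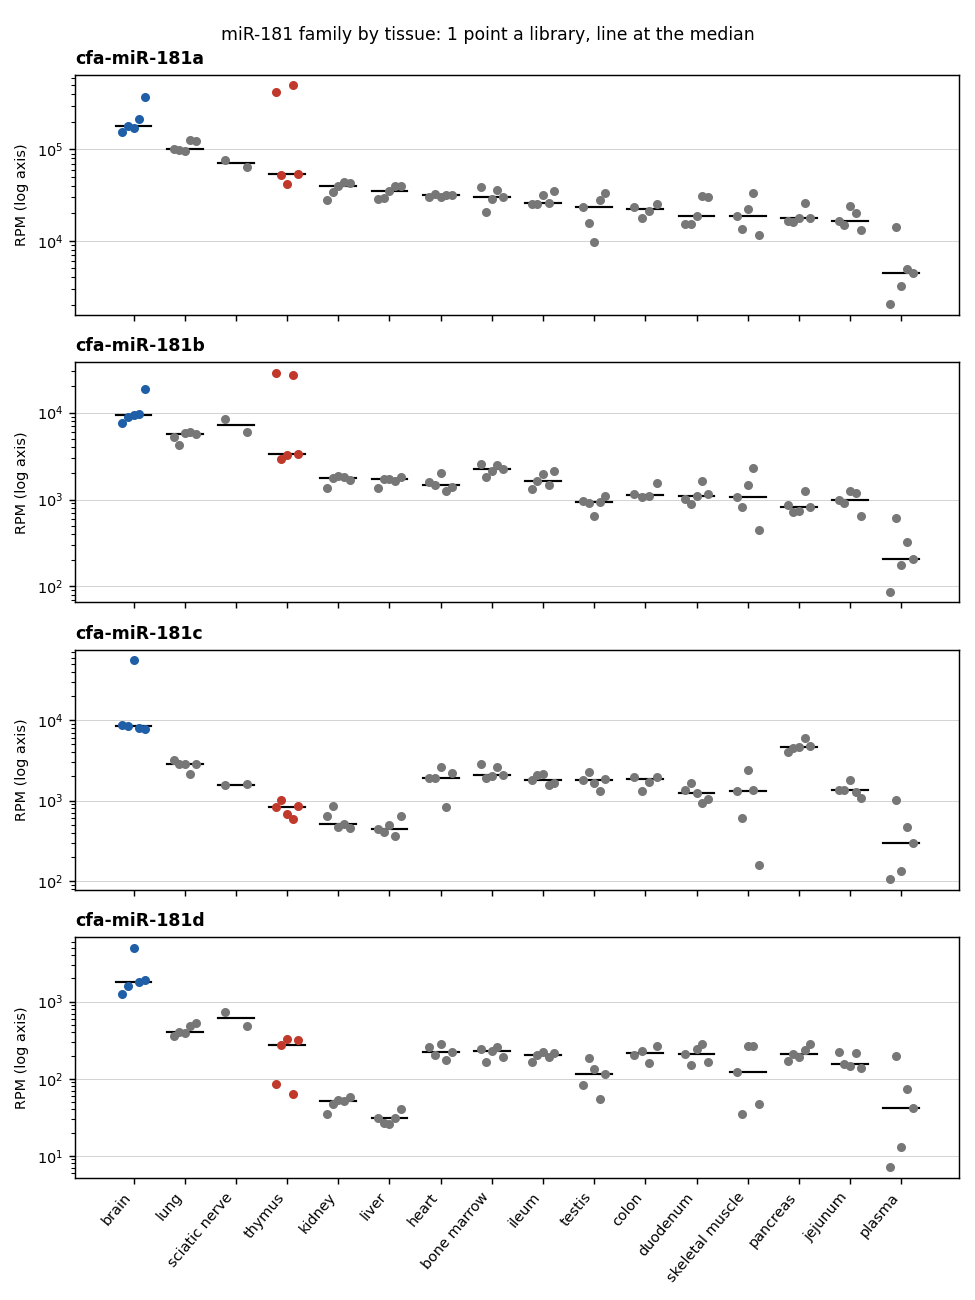
Level of each miR-181 member in RPM on a log axis, 1 point per library, for 16 tissues ordered by the median of miR-181a, with brain in blue, thymus in red and other tissues in grey. miR-181a and miR-181b split thymus into 2 high and 3 lower libraries, while all brain values of miR-181c and miR-181d lie above every other library.

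**Figure D2:**
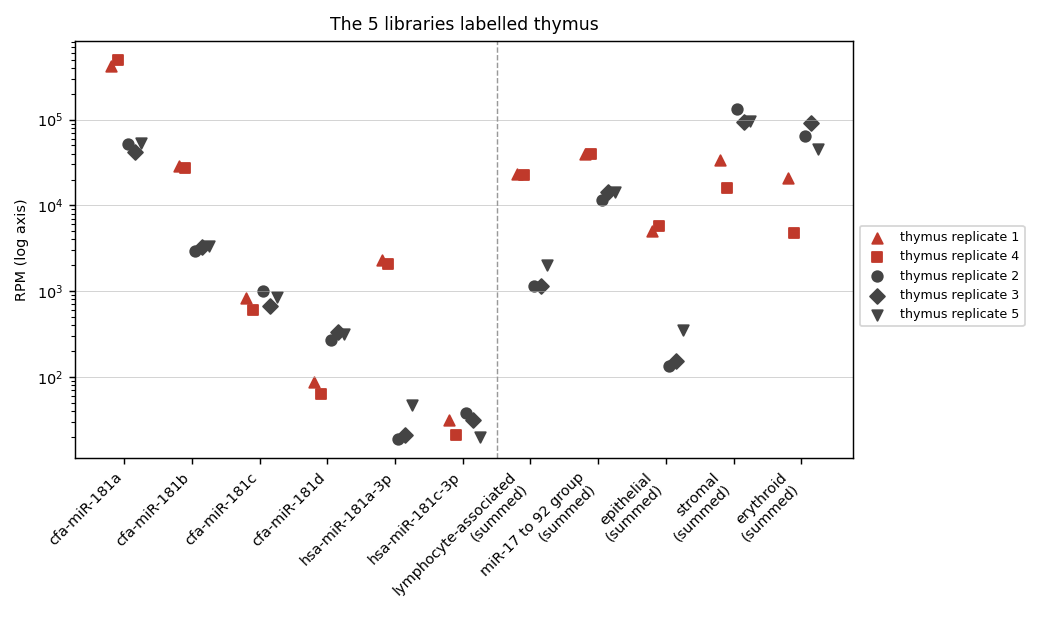
The 5 thymus libraries, with replicates 1 and 4 in red and replicates 2, 3 and 5 in dark grey, in RPM on a log axis, members and opposite arms left of the dashed line and summed marker lists right of it. Replicates 1 and 4 are high in miR-181a, miR-181b and hsa-miR-181a-3p together with the lymphocyte, epithelial and miR-17 to 92 lists, and low in miR-181d and in the stromal and erythroid lists.

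Whether a member was higher in thymus than elsewhere was asked against the mean of the other 15 tissues. With edgeR, miR-181a (log2 fold change 2.57 ± 0.21 SE, adjusted p = 3.4e-16) and miR-181b (2.74 ± 0.20, adjusted p = 1.33e-18) were higher. The fit used 1 spread per miRNA, shared over all 16 tissues, here and in the edgeR comparisons below. The SE and p of thymus therefore do not measure the spread of the thymus libraries alone, which ran from 41991 to 500018 RPM in miR-181a. miR-181c was lower (-1.11 ± 0.31, adjusted p = 0.00526), and miR-181d had a log2 fold change of 0.23 ± 0.32 (adjusted p = 0.692). Of all 480 miRNAs tested, 21.2% were higher and 5.21% lower in thymus, and the median log2 fold change was 0.19. By size of the log2 fold change miR-181b was 13th, miR-181a 16th, miR-181d 233rd and miR-181c 426th of the 480.

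The size of the thymus result for miR-181a and miR-181b rested on replicates 1 and 4. Without these libraries the log2 fold changes were 0.74 for miR-181a (adjusted p = 0.0182) and 1.03 for miR-181b (adjusted p = 3.13e-04), with replicates 1 and 4 alone 3.70 and 3.85. miR-181c kept its negative sign in both cases, at -0.90 (adjusted p = 0.0821) without replicates 1 and 4 and -1.41 (adjusted p = 0.053) without replicates 2, 3 and 5. miR-181d changed sign, from 0.81 (adjusted p = 0.0696) without replicates 1 and 4 to -1.57 (adjusted p = 0.0404) without replicates 2, 3 and 5. The lymphocyte, epithelial, stromal and erythroid levels that move with these libraries are given above, and their part in the result was not tested. An exact two-sided rank-sum test of RPM against all other samples called none of the 4 members in thymus at an adjusted p under 0.05 (3 of 4 at an unadjusted p under 0.05), with miR-181a and miR-181b at an adjusted p of 0.145. By that test 0.195% of 514 miRNAs were called in thymus. The absence of a call depended on the family of the adjustment, since over all tissues together the adjusted exact rank-sum p was 0.0141 for miR-181a and 0.0119 for miR-181b.

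All 4 members were higher in brain than in the mean of the other 15 tissues. By edgeR the log2 fold changes were 2.79 ± 0.21 SE for miR-181c (adjusted p = 2.61e-19) and 2.82 ± 0.24 for miR-181d (adjusted p = 5.01e-17). They were 1.82 ± 0.23 for miR-181a (adjusted p = 9.07e-11) and 1.67 ± 0.22 for miR-181b (adjusted p = 3.68e-10). A higher call was common in brain, where 45.2% of the 480 miRNAs were higher and 28.1% lower, and the members ranked 140th (miR-181d), 142nd (miR-181c), 166th (miR-181a) and 174th (miR-181b). The exact rank-sum test of RPM also called all 4, along with 55.2% of 551 miRNAs in either direction.

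The scaling of brain libraries moved the median of all miRNAs. That median was 0.13 with TMM, 1.22 with library size alone and 0.81 with DESeq2. Relative to the median of the same scaling the members kept nearly the same values, for miR-181a 1.69, 1.59 and 1.75, for miR-181b 1.55, 1.43 and 1.60, for miR-181c 2.66, 2.48 and 2.58, and for miR-181d 2.70, 2.59 and 2.69. Brain replicate 3 carried much of the miR-181c value, which was 1.44 without it, and miR-181d was then 2.18. All 4 members stayed higher when any 1 brain library was left out.

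Levels within brain also set the members apart from one another. Every brain library exceeded every library of every other tissue in miR-181c, the lowest brain value being 7791 RPM against 6077 RPM as the highest elsewhere, in pancreas. The same held for miR-181d, at 1264 RPM against 731 RPM in sciatic nerve. These separations are in RPM. With TMM library sizes the brain median of miR-181c was 0.66 of the highest other sample, so its separation was lost. The brain median of miR-181d was then 1.31 times the highest other sample. For comparison, 12.9% of the 650 detected miRNAs had all brain libraries above all others. For miR-181a and miR-181b thymus replicates 1 and 4 lay above brain.

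In the direct comparison of thymus with brain both members of the chromosome 20 cluster were lower in thymus. miR-181c was lower in thymus with a log2 fold change of -3.66 ± 0.43 SE (adjusted p = 4.13e-11) and miR-181d with -2.43 ± 0.46 (adjusted p = 5.84e-06). miR-181b was higher in thymus at 1.00 ± 0.36 (adjusted p = 0.0124), and miR-181a had 0.71 ± 0.38 (adjusted p = 0.092). In this comparison 29.2% of the 480 miRNAs were higher and 35.4% lower in thymus by edgeR.

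The 2 lower members kept their direction and call under every alternative run, whereas the values of miR-181a and miR-181b depended on scaling and libraries. With library size alone miR-181a was at -0.022 (adjusted p = 0.985) and miR-181b at 0.28 (adjusted p = 0.547), and with DESeq2 at -0.051 (adjusted p = 0.935) and 0.25 (adjusted p = 0.566). Relative to the median of all miRNAs, which was -0.08, -1.07 and -0.76 in the 3 scalings, miR-181a was at 0.78, 1.05 and 0.71. Without thymus replicates 1 and 4 the values were -1.13 for miR-181a (adjusted p = 0.00433) and -0.71 for miR-181b (adjusted p = 0.0549). Without replicates 2, 3 and 5 they were 1.39 (adjusted p = 0.00199) and 1.67 (adjusted p = 1.3e-04). In RPM every brain value of both members lay between these sets of thymus libraries, which were set apart after the values were seen. The signs thus followed from the choice of libraries, and the p-values without either set are no test for miR-181a and miR-181b.

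Bone marrow, the other blood-forming tissue, was compared with thymus in the same fit. miR-181a (log2 fold change 3.1 ± 0.41 SE, adjusted p = 2.58e-09) and miR-181b (2.82 ± 0.38, adjusted p = 6.4e-09) were higher in thymus, where 27.3% of all miRNAs were higher and 10.2% lower by edgeR and the median was 0.78. miR-181c was lower at -1.10 ± 0.39 (adjusted p = 0.0201), and miR-181d had 0.54 ± 0.45 (adjusted p = 0.392). miR-181a and miR-181b stayed higher without replicates 1 and 4, at 1.26 (adjusted p = 9.68e-04) and 1.11 (adjusted p = 0.00248) beside a median of 0.46. The miR-181c call was lost in both cases, at -0.88 (adjusted p = 0.121) without replicates 1 and 4 and -1.33 (adjusted p = 0.0781) without replicates 2, 3 and 5. miR-181d was at 1.12 (adjusted p = 0.0418) and -1.20 (adjusted p = 0.141) in the same order. All these comparisons share the thymus libraries, and those with the mean of other tissues share most of their samples.

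Sciatic nerve, peripheral nervous tissue, differed from brain past the threshold in 1 member, miR-181c. By edgeR miR-181c was higher in brain (log2 fold change 2.93 ± 0.61 SE, adjusted p = 7.77e-05), with 27.3% of all miRNAs higher and 17.9% lower and a median of 0.72. miR-181a was at 1.02 ± 0.52 (adjusted p = 0.0996), miR-181d at 1.34 ± 0.62 (adjusted p = 0.0673) and miR-181b at -0.01 ± 0.47 (adjusted p = 1). With library size alone the median rose to 1.39, miR-181a was at 1.62 (adjusted p = 0.0179) and miR-181d at 1.91 (adjusted p = 0.0142). With 2 sciatic nerve samples the comparison is the least certain of those made.

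**Figure D3:**
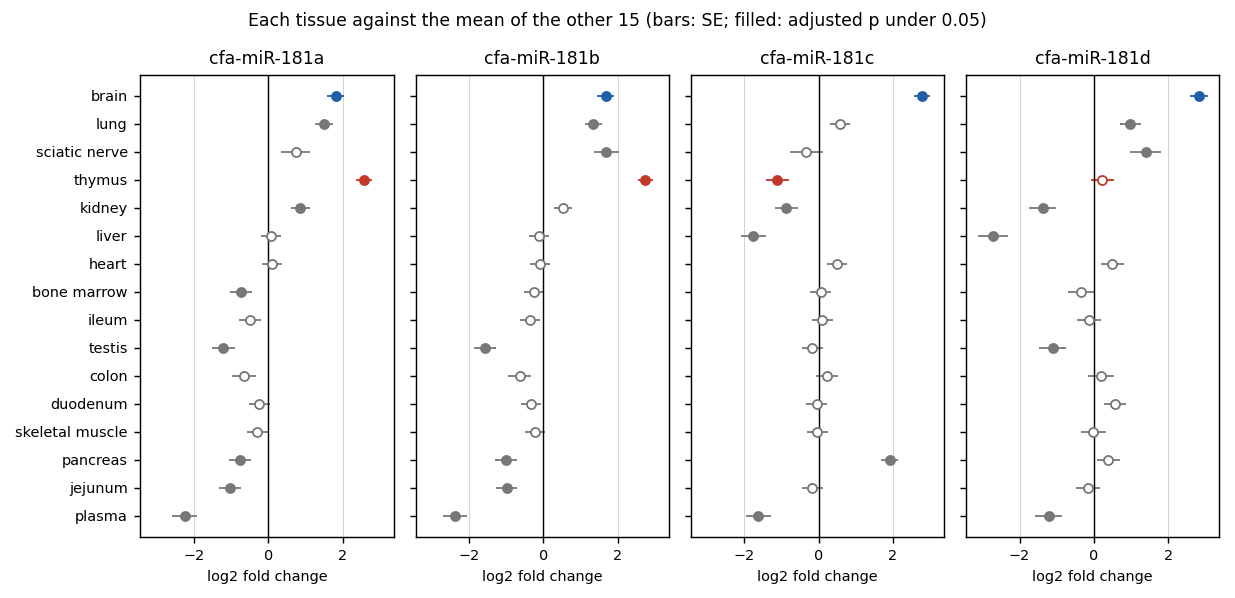
Log2 fold changes of the 4 members from edgeR with standard errors as bars, filled where the adjusted p is under 0.05. miR-181a and miR-181b are higher in thymus with miR-181c lower, and all 4 are higher in brain.

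Across the atlas the order of tissues differed between members. For miR-181a brain was first with a median of 178387 RPM, followed by lung with 100568 RPM (range 96517 to 125102), sciatic nerve with 70815 RPM (64864 to 76766), thymus with 53348 RPM and kidney with 39831 RPM (27882 to 44452). Liver, heart and bone marrow followed at 35057, 31664 and 29941 RPM, and ileum, testis, colon, duodenum, skeletal muscle, pancreas and jejunum lay between 25685 and 16552 RPM. Plasma was last at 4448 RPM (2034 to 14267), so that the medians spanned 40.1 times. The place of thymus came from a median that fell among the low libraries.

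miR-181b kept almost the same order, with brain at 9264 RPM, sciatic nerve at 7235 RPM (5997 to 8472), lung at 5690 RPM (4245 to 6033), thymus at 3349 RPM and bone marrow at 2221 RPM (1799 to 2569). Kidney, liver, ileum, heart, colon, duodenum, skeletal muscle, jejunum, testis and pancreas followed from 1790 down to 821 RPM. Plasma was last again at 209 RPM (87.3 to 618).

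miR-181c had another order. After brain came pancreas at 4599 RPM (3964 to 6077), lung at 2837 RPM (2140 to 3208) and bone marrow at 2056 RPM (1912 to 2846). Heart, colon, testis, ileum, sciatic nerve, jejunum, skeletal muscle and duodenum lay between 1905 and 1236 RPM, with skeletal muscle the widest at 158 to 2408 RPM. Thymus was 13th of 16 at 836 RPM, above kidney (509 RPM), liver (443 RPM) and plasma (298 RPM). Pancreas, second here, was 14th for miR-181a and 15th for miR-181b.

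miR-181d was highest in brain at 1796 RPM, then in sciatic nerve at 609 RPM (488 to 731), lung at 405 RPM (356 to 529) and thymus at 272 RPM. Bone marrow, heart, colon, pancreas, duodenum, ileum, jejunum, skeletal muscle and testis lay between 232 and 115 RPM. Kidney at 50.9 RPM (34.9 to 58.1), plasma at 42.2 RPM (7.28 to 198) and liver at 30.7 RPM (26.0 to 40.2) were lowest, and in these 3 tissues alone a member had a median under 100 RPM. The medians of miR-181d spanned 58.5 times, the widest of the family.

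Neighbours in these orders could seldom be told apart at this sample size. Of 60 neighbouring pairs of tissues, 0 passed a two-sided exact permutation test at an adjusted p under 0.05 (13 of 60 at an unadjusted p under 0.05), and the smallest adjusted p was 0.0595. The smallest p that 5 against 5 samples can give is 0.00794, and with 15 pairs a member this passes the adjustment only where 3 or more pairs reach it, so a lone pair cannot go below 0.119. Pairs of 5 samples with the 2 of sciatic nerve cannot go below 0.0476 before adjustment. A pair that did not pass is therefore not shown to be alike, and what can be read is whether the ranges overlapped. The ranges of 8 pairs did not overlap. These were brain above lung and lung above sciatic nerve for miR-181a, and thymus above bone marrow and pancreas above plasma for miR-181b. They were brain above pancreas and pancreas above lung for miR-181c, and brain above sciatic nerve and lung above thymus for miR-181d. Of such pairs over all 266 miRNAs with a tissue median above 100 RPM, 0.226% passed the test and 6.54% had ranges apart.

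In the 14 further tissues, each against the mean of its other 15, 7 of 56 member and tissue pairs were higher and 16 lower by edgeR. Over all miRNAs 23.3% of such pairs were higher and 14% lower. Lung, where 20.4% of all miRNAs were higher, was higher in miR-181a (log2 fold change 1.49), miR-181b (1.34) and miR-181d (0.98). Sciatic nerve (24.8% of all miRNAs higher) was higher in miR-181b (1.69) and miR-181d (1.39). Pancreas (21.2%) was higher in miR-181c (1.91) and kidney (24.2%) in miR-181a (0.86).

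The 16 lower pairs lay in 7 of the 14 tissues, and the 7 higher ones in 4. Plasma, where 24.6% of all miRNAs were lower, was lower in all 4 members, at -2.25, -2.39, -1.62 and -1.22 for miR-181a to miR-181d. Liver (12.3% of all miRNAs lower) was lower in miR-181c (-1.76) and miR-181d (-2.72), and kidney (10.2%) likewise at -0.87 and -1.38, so both organs were low in the chromosome 20 members. Pancreas (19.2%) was lower in miR-181a (-0.76) and miR-181b (-1.01), and jejunum (13.1%) in the same members at -1.03 and -0.99. Testis (16.2%) was lower in miR-181a (-1.21), miR-181b (-1.57) and miR-181d (-1.11), and bone marrow (24.6%) in miR-181a (-0.73). All 23 calls had the same direction with TMM, library size and DESeq2, and 17 were called in all 3. The other 6 were bone marrow, kidney, pancreas and testis for miR-181a and lung and testis for miR-181d.

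Tissue enrichment was read with the criteria of the study. An miRNA is TE, tissue enriched, where its mean RPM exceeds that over the remaining samples by more than 5 times and an adjusted exact rank-sum p is under 0.05, and here also where its tissue median is above 100 RPM. It is HTE, highly tissue enriched, in a single tissue where its tissue median also exceeds 5 times the highest other sample. It is HTE in a pair of tissues where the second highest tissue median is above 70% of the highest and the third is below 20%. miR-181c (10.7 times, adjusted p = 7.02e-07, exact rank-sum test) and miR-181d (12 times, adjusted p = 7.02e-07, exact rank-sum test) were TE in brain, as were 13.8% of 551 miRNAs there and 2.24% of miRNA and tissue pairs over the atlas. miR-181a at 4.84 times and miR-181b at 4.16 times in brain were below the limit of 5. With a fold of medians they were TE in brain, at 6.25 and 6.32 times. They were also TE there without thymus replicates 1 and 4, at 6.63 and 5.82 times. In thymus miR-181a was at 4.75 times and miR-181b at 5.41 times, both with an adjusted exact rank-sum p of 0.145, and 0 of 514 miRNAs were TE. With the p adjusted over all tissues together miR-181b was TE in thymus (adjusted exact rank-sum p = 0.0119).

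No member was HTE by either route. The brain median over the highest other sample was 2.46 for miR-181d and 1.41 for miR-181c, where 0.756% of all miRNA and tissue pairs were HTE in a single tissue. The second tissue reached 78.1% of brain for miR-181b, but the third, lung, was still at 61.4%, and for the other members the second tissue was at 33.9% to 56.4%. Scaling lowered the brain values. With TMM library sizes miR-181c was at 5.78 times and miR-181d at 6.29 times, both still TE, and miR-181a fell to 2.60 times, while the brain median of miR-181c was then 0.66 of the highest other sample. The calls also moved with single libraries. Without brain replicate 3 miR-181c was no longer TE and miR-181a became TE at 5.12 times, while miR-181d stayed at 8.53 times. Without thymus replicates 2, 3 and 5 miR-181a (10.2 times) and miR-181b (11.6 times) met the TE criteria in thymus, both with an adjusted exact rank-sum p of 0.0364. The thymus libraries kept there lay above every other library in both members, and they were set apart after the values were seen. Their ranks were thus fixed by the choice, so this p and these calls are no test of enrichment.

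The make-up of the family was compared by ratios of counts within a library, which do not depend on scaling. Mature miRNAs are of nearly equal length, and RPM is not corrected for length or ligation, so each ratio was compared between tissues and not read as a ratio of molecules. The ratio of miR-181c to miR-181a was -8.99, -5.68, -5.96, -9.71 and -5.94 on the log2 scale in thymus replicates 1 to 5, and -4.17, -4.38, -1.61, -4.76 and -5.58 in brain. All thymus libraries were below all brain libraries. The difference of the means was -3.16 (exact permutation test, two-sided, adjusted p = 0.0238 over 12 tests).

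The joint ratio of miR-181c and miR-181d to miR-181a and miR-181b gave -3.08 between thymus and brain (exact permutation test, adjusted p = 0.0238). Against all other samples thymus was lower in both ratios, by -3.01 and -2.86 (exact rank-sum test, both adjusted p = 0.00346). The size of these differences rested on replicates 1 and 4. For miR-181c to miR-181a replicates 2, 3 and 5, at -5.68, -5.96 and -5.94, lay within the range of kidney (-6.56 to -5.34). Brain did not pass either test against all other samples, at 0.37 and 0.44 (exact rank-sum test, both adjusted p = 1). Without brain replicate 3 these brain differences were -0.25 and -0.16. Without thymus replicates 1 and 4, 1 of the 12 tests passed, and without replicates 2, 3 and 5, 2 passed, against 5 with all libraries, in designs with fewer thymus samples.

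miR-181b to miR-181a was steadier than the other ratios, with tissue medians from -4.62 in testis to -3.31 in sciatic nerve on the log2 scale. Thymus exceeded brain by 0.35 (exact permutation test, adjusted p = 0.0381). miR-181d to miR-181c differed by 0.40 between thymus and brain (exact permutation test, adjusted p = 0.533). For miR-181c to miR-181a the highest tissue was pancreas, where the libraries ran from -2.10 to -1.83, and kidney and liver had the lowest medians at -6.39 and -6.13. For miR-181d to miR-181c pancreas had the lowest median at -4.53 and sciatic nerve the highest at -1.41. The pancreas thus held much miR-181c without a like amount of miR-181d.

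**Figure D4:**
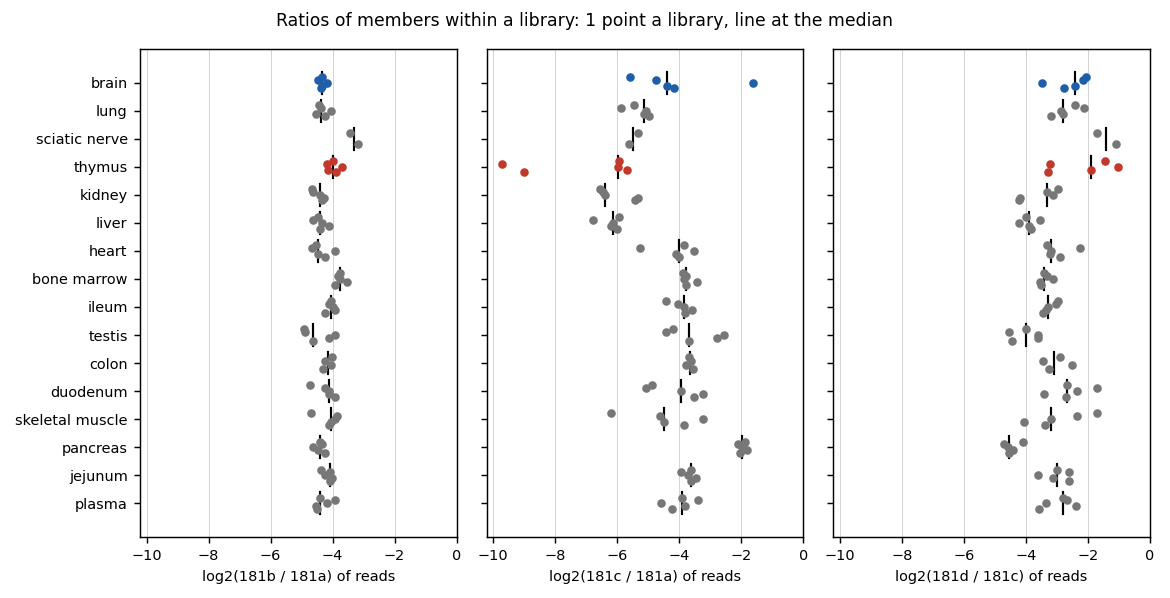
Log2 ratios of counts within a library for 16 tissues, 1 point per library, with brain in blue and thymus in red. miR-181c to miR-181a ranges from -9.71 in a thymus library to -1.61 in a brain library and lies between -2.10 and -1.83 in pancreas, while miR-181b to miR-181a varies little.

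The opposite arms of the hairpins, which the choice of members did not use, were followed as a second readout. These are the strands that are mostly discarded when a hairpin is processed. hsa-miR-181a-3p, whose row also carries the name rno-miR-181a-1-3p and so points to the MIR181A-1 hairpin, had reads in 75 libraries, and hsa-miR-181c-3p had reads in 76. hsa-miR-181b-2-3p and hsa-miR-181b-3p had 57 and 73 reads over all libraries and were not tested.

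hsa-miR-181a-3p showed the same division of the thymus libraries as miR-181a. It was at 2299, 19.0, 21.1, 2044 and 47.3 RPM in replicates 1 to 5, where the value in replicate 2 is 3 reads, and at 695, 692, 342, 868 and 671 RPM in brain. Replicates 1 and 4 were above all brain libraries and the other 3 were far below them. By edgeR it was higher in thymus (log2 fold change 3.57 ± 0.31 SE, adjusted p = 7.98e-16), 4th of the 480 miRNAs, and without replicates 1 and 4 it was at -0.95 (adjusted p = 0.0907). In brain it was higher at 2.25 ± 0.34 (adjusted p = 1.88e-08).

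hsa-miR-181c-3p was at 31.3, 38.0, 31.4, 20.8 and 19.7 RPM in thymus and at 841, 734, 1455, 731 and 509 RPM in brain. As for miR-181c, brain replicate 3 was the highest and every brain library was above all other libraries, of which plasma had the highest at 224 RPM. It was lower in thymus (log2 fold change -1.37 ± 0.29 SE, adjusted p = 1.79e-04) and higher in brain (2.86 ± 0.19, adjusted p = 8.58e-23) by edgeR. The chromosome 20 hairpin thus gave the same direction from both arms.

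The balance between the arms differed among libraries. There were 185 and 245 reads of miR-181a per read of hsa-miR-181a-3p in thymus replicates 1 and 4, and 2750, 1990 and 1128 in replicates 2, 3 and 5. Brain had 224, 258, 494, 247 and 555. Tissue medians ran from 127 in bone marrow and 149 in testis to 2570 in skeletal muscle. Thymus replicates 1 and 4 lay between the medians of plasma (166) and brain (258). The other 3 were spread from a little above the median of lung (1104) to a little above that of skeletal muscle. Because miR-181a also comes from a second hairpin, this ratio is not that of 1 hairpin. miR-181c per hsa-miR-181c-3p was 10.2, 11.7, 38.0, 10.9 and 15.3 in brain, with replicate 3 apart, and 21.5 to 43.9 in thymus. Plasma had the lowest median, 6.84.

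**Figure D5:**
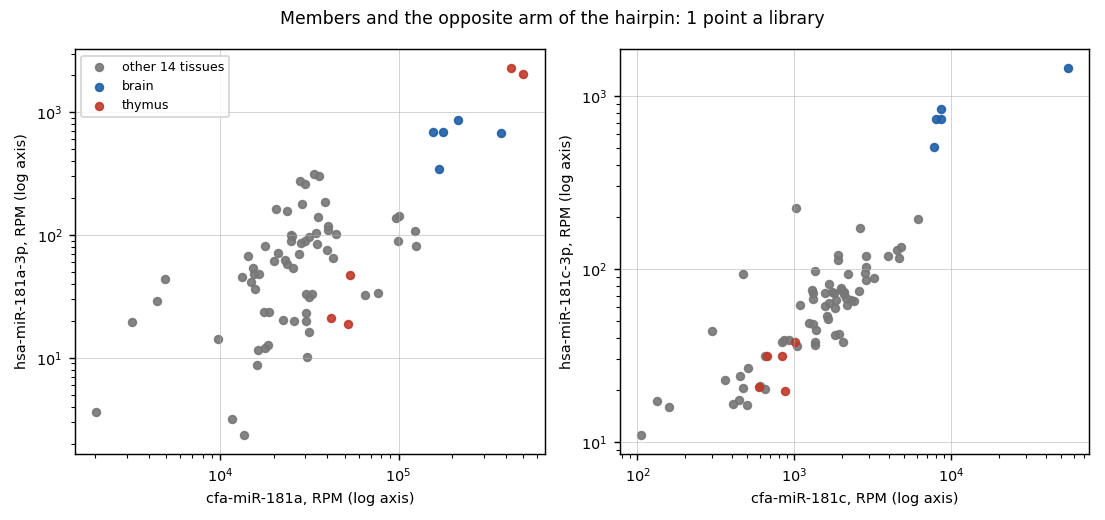
RPM of hsa-miR-181a-3p against miR-181a and of hsa-miR-181c-3p against miR-181c on log axes, 1 point per library. Brain is in blue, thymus in red and other tissues in grey, and 1 skeletal muscle library without hsa-miR-181a-3p reads is omitted. Thymus replicates 1 and 4 lie above all brain libraries in miR-181a and in hsa-miR-181a-3p, and the other 3 lie below them in both.

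The miRNAs most like each member were taken by Spearman's rho over the 16 tissue medians among the 266 miRNAs above 100 RPM in some tissue, as a description. The medians share libraries, depth and the reads counted on more than 1 member. miR-181a was most like miR-181b (0.94), followed by miR-130a (0.81), let-7c (0.81), miR-125b-2-3p (0.76) and miR-30c-1-3p (0.76). miR-181b was most like miR-181a, then miR-197 (0.87), let-7c (0.71), miR-218 (0.71) and miR-130a (0.70). The nearest to miR-181c was its own opposite arm hsa-miR-181c-3p (0.94), then miR-628 (0.76), miR-181d (0.67), miR-335-3p (0.67) and miR-218 (0.65). miR-181d was most like miR-218 (0.94), then miR-197 (0.72), miR-338-5p (0.67), miR-181c (0.67) and miR-181b (0.67). Between members the lowest values were 0.24 for miR-181b with miR-181c and 0.25 for miR-181a with miR-181c, and miR-181a with miR-181d had 0.59. Of the members encoded side by side, miR-181a and miR-181b were alike across tissues to a high degree (0.94). miR-181c and miR-181d had 0.67, no more than miR-181b with miR-181d (0.67), which lie in different clusters.

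Other miRNAs of the same settings put these values in context. In thymus by edgeR, where 21.2% of all miRNAs were higher and 5.21% lower, 5 of 7 lymphocyte-associated miRNAs were higher and 0 lower (median log2 fold change 1.62, beside 0.19 over all miRNAs), among them miR-142-3p (3.02), miR-150 (2.72) and miR-155 (2.31). In the miR-17 to 92 group 8 of 18 were higher and 0 lower (median 0.67), with miR-20b at 2.64 and miR-106a at 2.51. Of 11 epithelial miRNAs 1 was higher, miR-205 at 7.02, and 1 lower, miR-203 at -2.03. Of 7 stromal miRNAs none passed in either direction, with a median of -0.55. These counts rested on the same libraries as the members, with summed lymphocyte-associated levels of 23345 and 22908 RPM in replicates 1 and 4 against 1140 to 2021 RPM. Without replicates 1 and 4, 0 of 7 lymphocyte-associated miRNAs were higher and 3 lower, 3 of 18 of the miR-17 to 92 group were higher and 4 lower, and 0 of 11 epithelial miRNAs were higher and 3 lower, where 15.8% of all miRNAs were higher and 11.2% lower. Without replicates 2, 3 and 5 the lymphocyte-associated count was again 5 higher, and 16 of 18 of the miR-17 to 92 group were higher, beside 15.2% of all miRNAs. The thymus libraries were set apart by the levels of these lists, after the values were seen. The counts of the lists in each set thus followed from the choice of libraries and are no test. miR-181a and miR-181b were higher by edgeR with either set. Without replicates 1 and 4 their mean RPM was only 1.09 and 1.32 times that of the remaining samples (adjusted exact rank-sum p = 0.312 and 0.289). Whether the members go with the lymphocyte content of a library was not tested.

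Other lists held few calls in thymus. Among 19 neural miRNAs 3 were higher, including miR-128 (1.97) and miR-212 (1.16), and 2 lower, miR-338 (-1.90) and miR-129 (-1.74), with a median of -0.94. Of 4 erythroid miRNAs 1 was higher, of 9 striated muscle miRNAs 1 was lower (median -1.19), and of 2 myeloid rows none passed.

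In brain, where 45.2% of all miRNAs were higher and 28.1% lower, all 19 neural miRNAs were higher (median 5.55, beside 0.13 over all miRNAs), led by miR-124 (10.86), cfa-miR-219-3p (10.66) and miR-9 (9.02), and the members at 1.67 to 2.82 stayed well under that median. The miR-17 to 92 group was lower in 17 of 18 (median -1.73), and 5 of 7 lymphocyte-associated miRNAs were lower and 2 higher, miR-342 among the latter at 2.11. Of the stromal list 6 of 7 were lower, and of the erythroid list 3 of 4. Of 11 epithelial miRNAs 3 were lower and 1 higher, of 9 striated muscle miRNAs 4 were lower and 1 higher, and of 2 myeloid rows 1 was lower.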

How the data were processed

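Small RNA libraries (TruSeq) were aligned by the authors with OSA v4 (CanFam3.1, no mismatch allowed, reads at over 10 genomic locations dropped). Reads covering at least 70% of a locus annotated from dog, human or rat miRNAs were counted. The authors deposited counts for each miRNA and sample, the total of reads on miRNAs, and the RPM computed from both, which are the other values used. A miRNA not listed for a sample was set to 0. Tissues came from the labels. Of 77 labelled samples 1 colon sample had no values here, and 1 sample name in the table could not be mapped and was not used.

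Counts were fitted by the quasi-likelihood test of edgeR 4.0.16 (filterByExpr, TMM, deposited totals as library sizes, all 16 tissues in 1 fit, Benjamini-Hochberg over 480 miRNAs, threshold 0.05). DESeq2 1.42.0 was an alternative, in R 4.3.3. Exact permutation and rank-sum tests were two-sided (Python 3.11.15, numpy 2.4.6, pandas 2.3.3, scipy 1.17.1, matplotlib 3.10.9). Ratios used 0.5 added counts, and RPM logs a pseudocount of 1. On simulated counts of 410 miRNAs, thymus against the mean of the other 15 tissues, 53.9% of 2-fold and 90.6% of 4-fold changes were recovered, with 1.46% false among those called. The simulated tissues differed only by the changes put into thymus, and the simulated thymus libraries were not of 2 kinds. These rates therefore need not hold for the real thymus comparison. No library was a copy of another in its tissue by a chi-square test of counts.

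The members, the marker lists and the comparisons were chosen with earlier results of these data known. Named were the members, all other miR-181 rows, the 5 miRNAs most like each member, and up to 4 called miRNAs per list by size of change. Values of other single markers describe libraries and were picked after they were seen. Gene neighbours came from a table of UU_Cfam_GSD_1.0 with 43286 genes, another assembly than the authors', so no positions are given.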

Additional observations from a re-analysis of the deposited data

Results flagged for a closer look

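In tissues with 4 or 5 samples, 90 sets of values (members and opposite arms by tissue) were searched for a highest or lowest library whose gap to the next exceeded the 95% critical value of Dixon's ratio, which chance passes in about 1 of 20 sets. It did so in 9 of the 90, always for the highest library.

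Brain replicate 5 was apart in miR-181a, at 372666 RPM against a tissue median of 178387 RPM, and in miR-181b, at 18431 RPM against 9264 RPM. Brain replicate 5 also had the lowest neural list, at 50382 RPM, but the members took 40.1% of its reads, which lowers the RPM of other miRNAs. Brain replicate 3 was apart in miR-181c, at 55257 RPM against 8548 RPM, and in miR-181d, at 4958 RPM against 1796 RPM, while its miR-181a was not. It was the library with low miR-137, miR-132 and miR-212. Whether these go together was not tested.

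Pancreas replicate 4 was highest in miR-181a (25963 RPM, median 17582 RPM), miR-181b (1267 RPM, median 821 RPM) and hsa-miR-181c-3p (194 RPM, median 129 RPM). Plasma replicate 2 had miR-181a at 14267 RPM (median 4448 RPM), and duodenum replicate 1 had hsa-miR-181c-3p at 97.1 RPM (median 48.3 RPM). The wide split of thymus in miR-181a did not meet the limit, since 2 of its 5 libraries were high.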

How the results depend on the processing

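All 4 members were higher in brain, and miR-181a and miR-181b higher in thymus, under every edgeR and DESeq2 alternative run. The exact rank-sum test called 0 higher and 0 lower members in thymus, and 4 higher and 7 lower pairs in the further tissues. Thymus over brain gave 0 higher members with library size, DESeq2, only the tissues compared, or without thymus replicates 1 and 4, 2 without replicates 2, 3 and 5, and 0 to 2 with 1 library left out (0 without thymus replicate 1 or 4). The lower count was 0 without replicates 1 and 4 for thymus against the mean, and against bone marrow 0 without replicates 1 and 4 or 2, 3 and 5, and 0 to 1 with 1 library left out (0 without thymus replicate 4). Brain over sciatic nerve gave 3 higher members with library size, DESeq2 or either thymus set left out, 0 with only the tissues compared, and 1 to 2 with 1 library left out.

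Signs that turned on the log2 scale were these. miR-181d in thymus was -0.042 (without thymus replicate 3) to 0.48 with 1 library left out and -1.57 without replicates 2, 3 and 5, and against bone marrow -0.039 with library size, -0.22 (without thymus replicate 3) to 0.79 with 1 library left out and -1.20 without replicates 2, 3 and 5. Thymus over brain was -0.022 (library size), -0.051 (DESeq2) and -1.13 (without replicates 1 and 4) for miR-181a, and -0.71 (the last) for miR-181b. miR-181b in brain over sciatic nerve, near 0, was 0.57 (library size), 0.13 (no filter), 0.63 (DESeq2), 0.26 (without thymus replicates 2, 3 and 5), 0.08, 0.15 and 0.21 (without brain replicates 2, 3 and 4) and 0.30 (without sciatic nerve replicate 1), the range with 1 library left out being -0.34 to 0.30. hsa-miR-181a-3p in thymus was -0.95 without replicates 1 and 4, which left 0 arms higher. Ratios turned to -0.16 and -0.25 (brain, c+d to a+b and c to a, without brain replicate 3, against at most 0.79 and 0.74 with another library left out) and, without thymus replicates 2, 3 and 5, to -0.67 and -0.066 (d to c, thymus against brain and against all others). The cause was not tested.

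There were 4 TE calls with medians and without either thymus set, 3 with the p adjusted over all tissues together, and 2 to 3 with 1 library left out. The calls in thymus without replicates 2, 3 and 5 followed from the choice of libraries and are no test. Of 12 ratio tests 2 to 6 passed with 1 library left out, 2 without thymus replicates 2, 3 and 5 and 1 without replicates 1 and 4, where fewer samples limit the smallest p. Of the 20 most similar miRNAs 12 were kept without thymus and brain, 12 with Pearson's r and 13 with TMM-scaled CPM. No paired analysis was possible because the labels carry no dog number. Leaving out 2 or 3 thymus libraries was chosen after seeing the data. Depth limited hsa-miR-181a-3p in thymus replicate 2, with 3 reads.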
